A study of Homo sapiens with 12 samples.

Results

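The comparison described here is the difference between 2 colorectal cancer cell lines, RKO and SW48, in how each gene's expression changed with Nutlin-3a. For each probe set, the change in SW48 (Nutlin-3a minus untreated) was subtracted from the change in RKO, so that a positive response difference means a higher response in RKO and a negative one a higher response in SW48. It was computed for all 14530 probe sets of the array that are paired with 1 gene symbol, of 37270 in all, and these stand for 14118 genes. Of these, 52 had a response difference that passed the test (0.358% of those tested), 31 higher in RKO (0.213%) and 21 lower in RKO (0.145%).

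The 8 arrays compared are 2 of untreated SW48, 2 of SW48 given 10 µM Nutlin-3a for 8 h, 2 of untreated RKO and 2 of RKO given the same dose for the same time. Both lines are labelled as wild type for p53, and each is a single established line. The series also holds 4 arrays of HCT116 cells, another colorectal line labelled wild type for p53, untreated or treated in the same way. These entered the same model, where they add to the estimate of the spread, and their values are given beside some results. The labels call the arrays of a group duplicates without saying whether they came from separate cultures, so p-values rest on the spread between these arrays alone, which may be technical. The label texts on extraction and growth name thyroids and HCT116 only, and so do not settle how the SW48 and RKO samples were prepared.

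Nutlin-3a occupies the p53 pocket of the ubiquitin ligase MDM2, so that p53 is no longer degraded and accumulates without DNA damage. p53 then activates genes by binding DNA near them, among them genes of cell cycle arrest, apoptosis, metabolism and secreted signals. Most genes lowered after p53 activation are lowered indirectly: the induced inhibitor p21 keeps RB-family proteins and their E2F partners in repressive complexes at genes of DNA replication and mitosis. CDKN1A, which encodes p21, and MDM2 are not analysed here.

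Values are deposited log2 expression values, on which 1 unit is a doubling. All 12 arrays were fitted in 1 limma model of 6 group means, and a response difference was called at a Benjamini-Hochberg adjusted p under 0.05 over all 14530 probe sets. Differences are given ± standard error with n = 2 arrays per group, and all adjusted p-values below are from this limma fit unless another is named. Replicate arrays were close, with r from 0.996 to 0.997 within each group. Of the colorectal epithelial markers, EPCAM stood at 11.12 in untreated SW48 and at 6.03 in untreated RKO, and CDX2 at 9.60 and 7.52. CEACAM5 stood at 9.25 in untreated SW48 and at 4.67 in untreated RKO, below the median of 5.03 of all probe sets. VIL1 and CDX1 lay between 5.71 and 6.04 in the 4 groups, and KRT20 was below that median in both lines. Of the markers of other cells, the 5 thyroid genes measured of 7 lay between 4.49 and 5.99 in the 2 lines. NKX2-1, PAX8 and TG reached the median in both lines and FOXE1 in SW48, in at least 1 group. The fibroblast (LUM, DCN) and endothelial (VWF, KDR) genes, 2 measured of 5 in each set, were below the median throughout. CD68, the brightest of the 3 measured immune genes, stood at 8.59 in untreated SW48 and at 10.54 in untreated RKO. No marker had a called response difference.

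**Figure D1:**
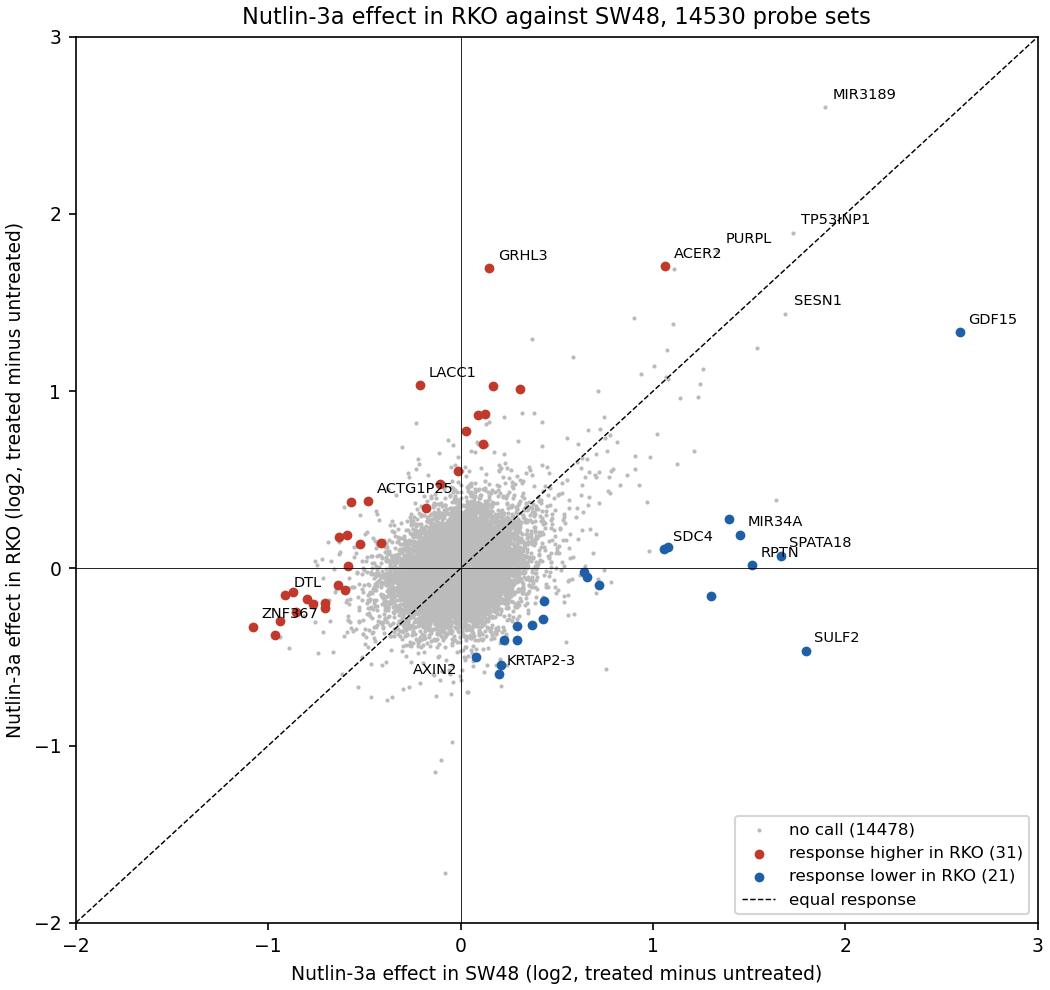
Nutlin-3a effect in RKO (y axis, log2) against the effect in SW48 (x axis, log2), 1 point per probe set. The 31 probe sets with a higher response in RKO lie above the dashed line of equal response, the 21 with a lower response below it, and the other 14478 are grey.

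The differences took several forms, which the plot of both effects separates. Of the 21 probe sets with a lower response in RKO, 14 rose in SW48 and did not pass in RKO, 1 rose in both lines, 1 rose in SW48 and fell in RKO, and 5 fell in RKO and did not pass in SW48. Of the 31 with a higher response in RKO, 16 fell in SW48 and did not pass in RKO, 2 fell in both, 1 fell in SW48 and rose in RKO, 11 rose in RKO and did not pass in SW48, and 1 rose in both. In SW48 2.95% of all probe sets passed for the Nutlin-3a effect, and in RKO 1.91%. An effect that did not pass is not shown to be absent. What was tested is the difference between the lines.

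In all 52, the 4 possible treated-minus-untreated differences in one line lay wholly above the 4 in the other. This is a weak criterion, since it held for 24.7% of all probe sets tested. The called differences ranged in size from 0.48 to 2.26 on the log2 scale, and 9 were at least 1. Their median standard error was 0.095, against 0.13 over all probe sets. Leaving out any 1 of the 12 arrays, each in turn, brought the count of calls to between 9, without SW48 Nutlin-3a replicate 1, and 27, without either treated HCT116 array. The calls of 8 genes held in each of these 12 fits: SPATA18, MIR34A, GDF15, SDC4 and C1orf116, lower in RKO, and DTL, CCNG2 and ACTG1P25, higher in RKO. Another 22 calls were lost in each of the 12 fits and 22 in some of them. With same-numbered replicates treated as pairs within each line, which the labels neither give nor exclude, only SULF2 was called. None of the 8 genes kept its call there.

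**Figure D2:**
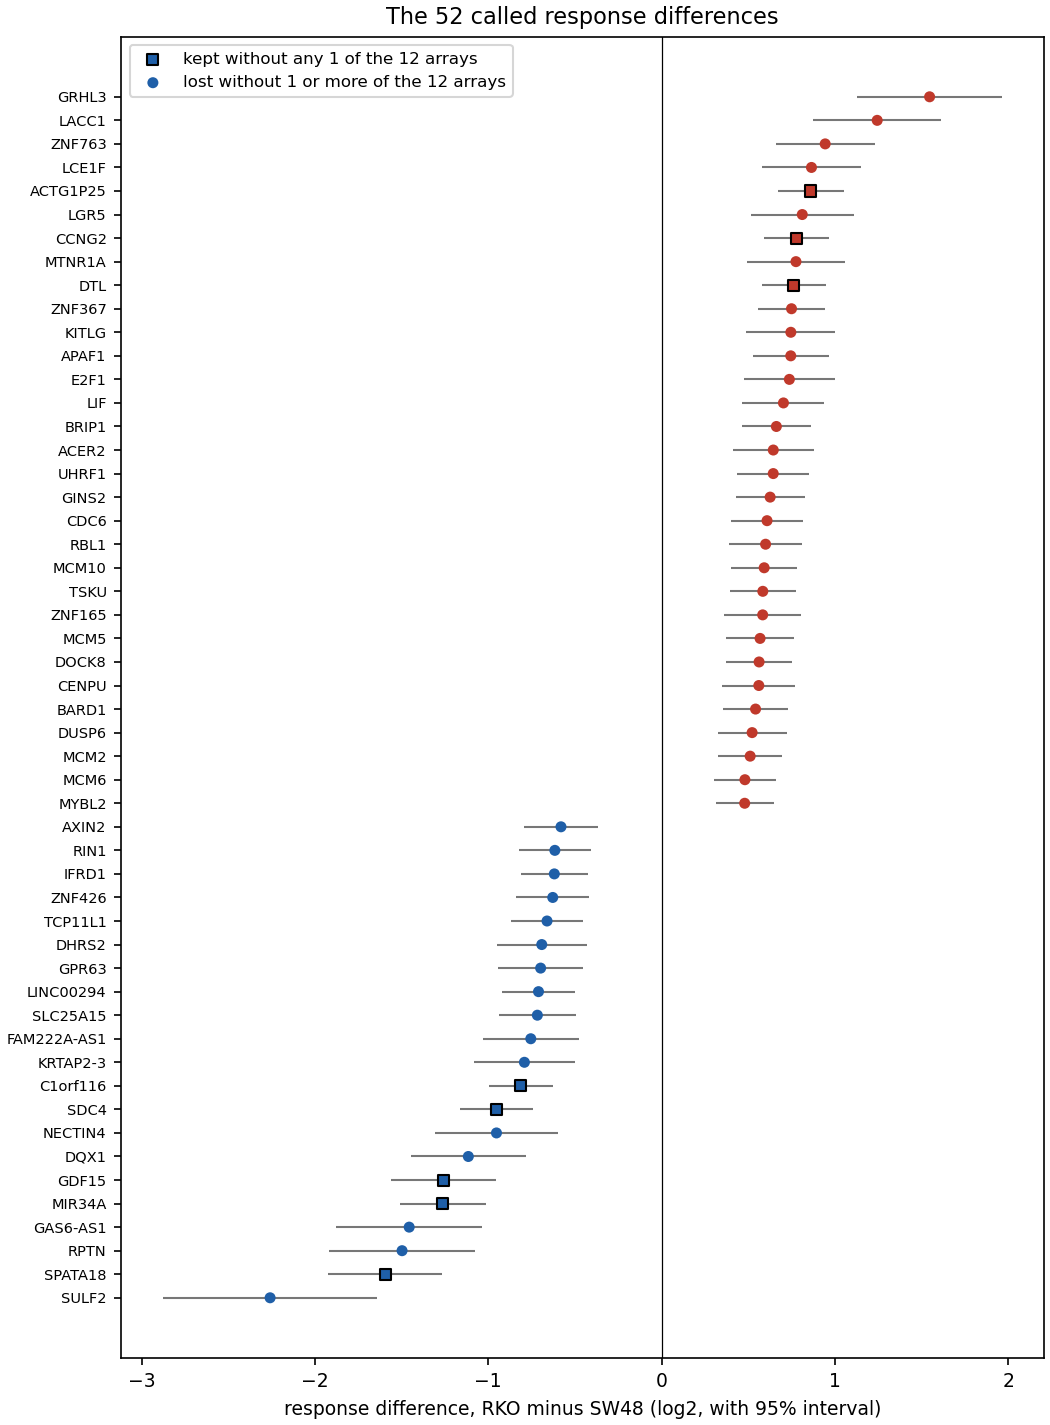
The 52 called response differences, RKO minus SW48 (x axis, log2), with 95% intervals from the limma fit that are not adjusted for the number of probe sets. Squares mark the 8 genes whose call held without any 1 of the 12 arrays.

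SULF2 had the largest response difference. It encodes a secreted sulfatase that trims heparan sulfate at the cell surface and is a known p53 target. The SW48 arrays read 8.02 and 8.13 untreated and 9.88 and 9.86 after Nutlin-3a, and the RKO arrays read 5.49 and 4.76 untreated and 4.81 and 4.50 after Nutlin-3a. Both treated SW48 arrays thus lay far above the untreated ones, while of the treated RKO arrays 1 lay within the range of the untreated ones and 1 below it. In lysed cultures like these, fewer expressing cells and less RNA per cell cannot be told apart. The difference was -2.26 ± 0.28 (adjusted p = 0.0153), a 4.78-fold ratio of responses. In HCT116 SULF2 rose by 1.81, close to the rise of 1.79 in SW48. A second SULF2 probe set, dimmer at 5.06 to 5.40 on all 8 arrays, gave -0.15 ± 0.14 (adjusted p = 0.758), so the probe sets of this gene disagree. The call was lost without RKO Nutlin-3a replicate 2 or without any 1 of the 4 SW48 arrays (adjusted p up to 0.0801).

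SPATA18, a p53 target that acts in the removal of damaged mitochondria, followed the same form. It stood at 8.01 and 7.88 in untreated SW48, at 9.52 and 9.70 in treated SW48, at 4.51 and 4.62 in untreated RKO and at 4.68 and 4.59 in treated RKO. The groups of SW48 did not overlap and those of RKO did. The difference was -1.59 ± 0.15 (adjusted p = 0.00639), and in HCT116 the change was 0.38 (adjusted p = 0.074). All 4 RKO arrays were below the median of all probe sets.

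MIR34A, the gene of the p53-induced microRNA miR-34a, which represses cell cycle and survival genes, differed by -1.26 ± 0.11 (adjusted p = 0.00639). Its probe set read 4.28 and 4.40 in untreated SW48 and 5.78 and 5.80 in treated SW48. In RKO it read 3.53 and 3.70 untreated and 3.85 and 3.77 treated, a change of 0.19 that did not pass (adjusted p = 0.269), although these groups did not overlap either. HCT116 changed by 0.14 (adjusted p = 0.373). The array reads the precursor's locus, which overlaps the host transcript MIR34AHG, and not the mature microRNA. The mature sequences are shown because the response of this locus differed, with the seed (bases 2 to 8) in capitals. They come from RefSeq (GRCh38.p14), at chr1:9151735-9151756 and chr1:9151693-9151714 on the minus strand.
hsa-miR-34a-5p: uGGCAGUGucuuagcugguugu
hsa-miR-34a-3p: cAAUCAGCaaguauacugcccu

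GDF15, a stress-induced cytokine of the TGF-beta family, was, among the called differences, the one gene that rose in both lines and rose less in RKO. It read 9.45 and 9.13 in untreated SW48 and 11.87 and 11.89 in treated SW48, and 11.26 and 11.29 in untreated RKO and 12.63 and 12.58 in treated RKO. The groups of each line did not overlap. The rise was 6.04-fold in SW48 and 2.52-fold in RKO, a difference of -1.26 ± 0.14 on the log2 scale (adjusted p = 0.00707). RKO started 1.99 higher and was also the higher line after treatment. Whether this high level plays a part in the smaller rise was not tested. The probe set of MIR3189, a microRNA gene that overlaps GDF15, had a response difference of the opposite sign, 0.71 ± 0.17, which did not pass (adjusted p = 0.193). It rose by 1.89 in SW48 and by 2.60 in RKO.

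SDC4, the heparan sulfate proteoglycan syndecan 4, and C1orf116 were higher in SW48 after Nutlin-3a and held in all leave-one-out fits. SDC4 read 11.06 and 10.95 in untreated SW48, 12.09 and 12.03 in treated SW48, 10.18 and 10.07 in untreated RKO and 10.26 and 10.20 in treated RKO, and differed by -0.95 ± 0.094 (adjusted p = 0.00639). It was bright in both lines, unlike SPATA18. C1orf116 rose by 0.72 in SW48, stood at -0.09 in RKO, and differed by -0.81 ± 0.082 (adjusted p = 0.00639).

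**Figure D3:**
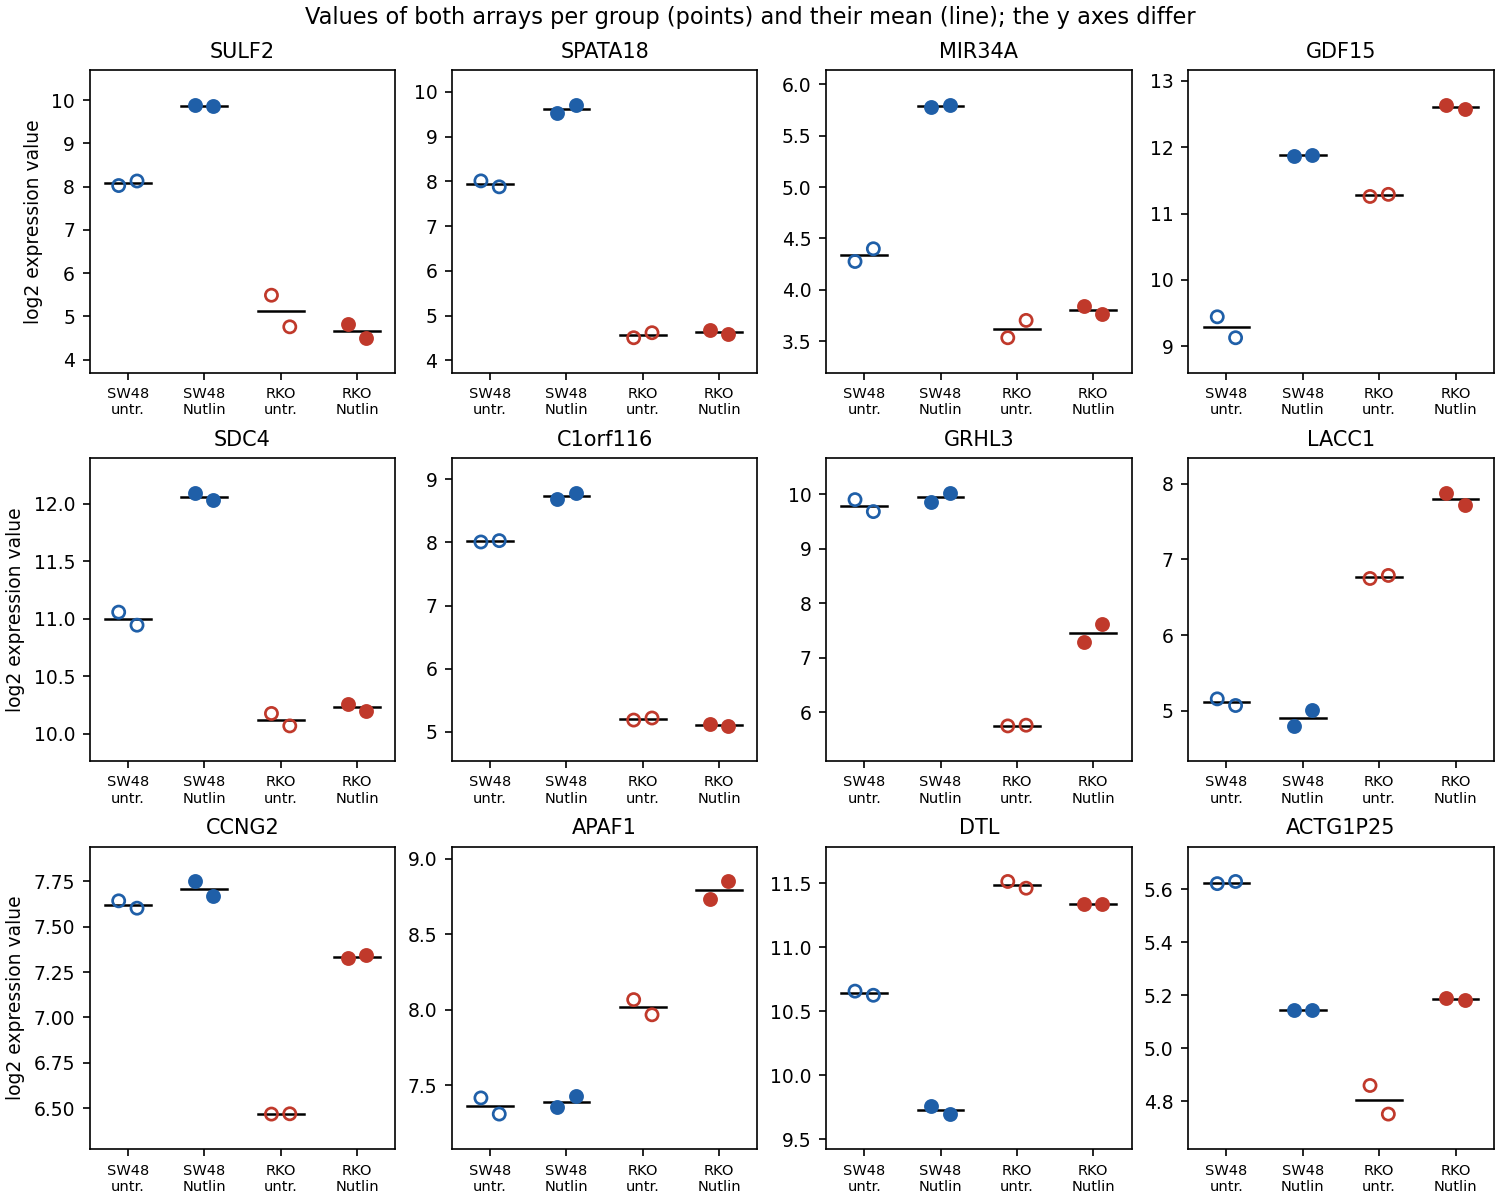
Log2 expression values of the 2 arrays of each group (points) and their mean (line) for 12 genes, in SW48 (blue) and RKO (red), untreated (open) and after Nutlin-3a (filled). SULF2, SPATA18, MIR34A, SDC4 and C1orf116 moved in SW48 and GRHL3, CCNG2 and APAF1 in RKO, with y axes that differ between panels.

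Other large negative differences were those of RPTN, GAS6-AS1, DQX1 and NECTIN4. RPTN, which encodes the epidermal protein repetin, differed by -1.50 ± 0.19 (adjusted p = 0.0171): it rose by 1.51 in SW48 and stood at 0.02 in RKO and at 0.01 in HCT116. NECTIN4, a cell adhesion gene and p53 target list member, differed by -0.95 ± 0.16 (adjusted p = 0.0445). DQX1, which encodes a helicase-like protein, differed by -1.11 ± 0.15 (adjusted p = 0.0197). GAS6-AS1, an antisense RNA that overlaps GAS6 and TMEM255B, differed by -1.46 ± 0.19 (adjusted p = 0.0197). A second, brighter probe set of it gave -0.22 ± 0.16 (adjusted p = 0.659), so the probe sets of this gene disagree. The call of RPTN was lost in 7 of the 12 leave-one-out fits (adjusted p up to 0.0858), that of DQX1 in 7 (0.0953), GAS6-AS1 in 5 (0.0858) and NECTIN4 in 10 (0.188). Each of these losses came without an RKO or SW48 array, and for NECTIN4 also without either untreated HCT116 array.

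Genes that were singled out after their values were seen include LINC00294 and TCP11L1, which lie close together in RefSeq's gene order, 2 places apart. Both rose in SW48 and in HCT116 and not detectably in RKO. LINC00294, a long noncoding RNA, read 10.25 and 10.14 in untreated SW48 and 10.81 and 10.90 in treated SW48, against 9.08, 9.04, 9.01 and 9.01 in RKO, and differed by -0.71 ± 0.093 (adjusted p = 0.0197). TCP11L1 differed by -0.66 ± 0.093 (adjusted p = 0.0264). TCP11L1 lost its call without any 1 of the 12 arrays (adjusted p up to 0.0996), and LINC00294 without any 1 of the 8 RKO and SW48 arrays (0.0948).

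The untreated levels of the 2 lines differ widely, and this bears on the form described first. Of the 14 probe sets that rose in SW48 and did not pass in RKO, 11 had a lower untreated level in RKO with a called difference, where 20.7% of all probe sets tested had one, out of 43.9% with a called difference in untreated level either way. Of the same 14, 5 were below the median of all probe sets in both RKO groups: SPATA18, RPTN, GAS6-AS1, MIR34A and DHRS2. The brighter GAS6-AS1 probe set, which was not called, was above it, at 5.83 in untreated and 6.02 in treated RKO. In untreated RKO alone the count was also 5 of 14, near the 30.8% of all probe sets tested that were below the median there. A low untreated level did not always go with a low response: GRHL3, KITLG, TSKU, CCNG2, LIF, DUSP6 and ZNF165 also started lower in RKO and responded more there. For ZNF165 a second, brighter probe set gave a response difference of 0.39 ± 0.12 that did not pass (adjusted p = 0.321). Of the 31 with a higher response in RKO, 13 had a called lower untreated level there. Of the 21 with a lower response in RKO, 13 had one. Whether the untreated level plays a part in these differences was not tested.

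**Figure D4:**
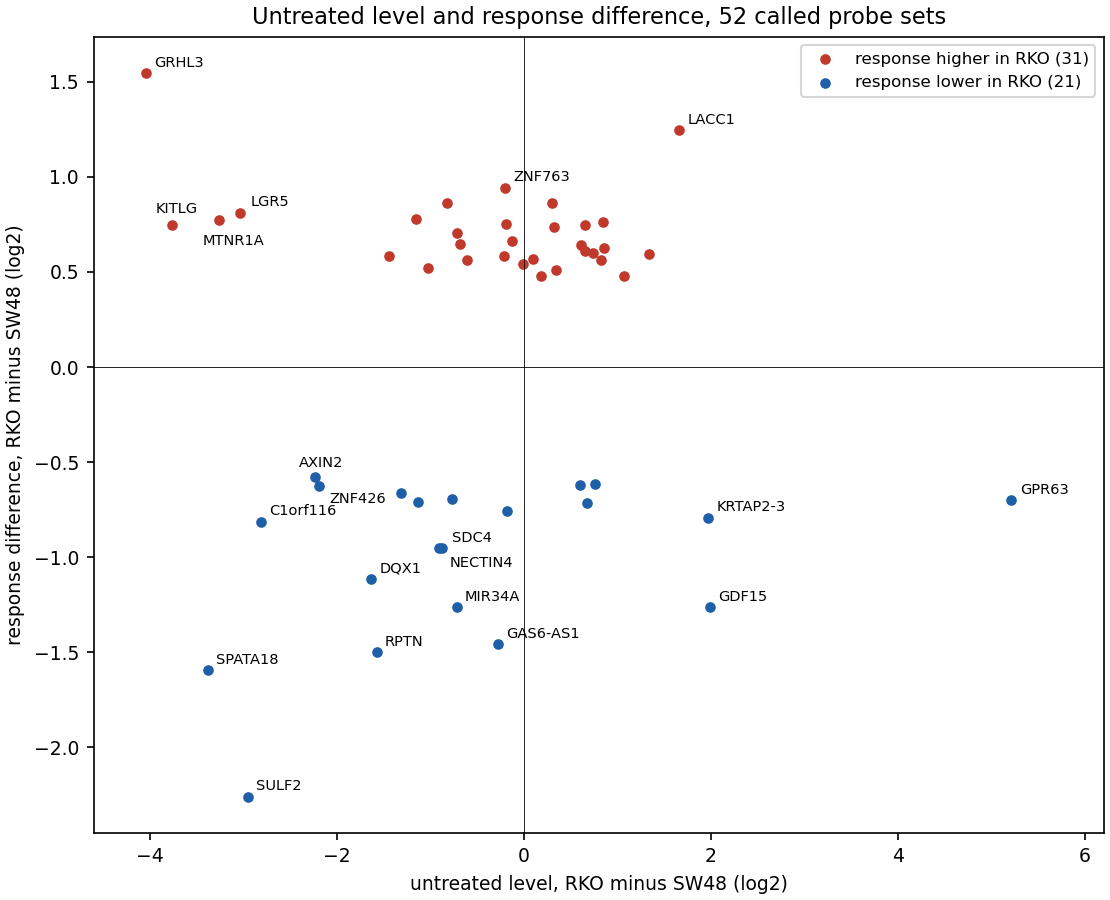
Response difference, RKO minus SW48 (y axis, log2), against the difference in untreated level, RKO minus SW48 (x axis, log2), for the 52 called probe sets. SPATA18 and SULF2 at the lower left and GRHL3 and KITLG at the upper left all start far lower in RKO and differ in the direction of the response difference.

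Among genes that responded more in RKO, GRHL3 had the largest difference. It encodes a grainyhead transcription factor of surface epithelia. RKO arrays read 5.75 and 5.76 untreated and 7.28 and 7.62 after Nutlin-3a, and SW48 arrays read 9.90 and 9.68 untreated and 9.87 and 10.02 after Nutlin-3a. The treated RKO arrays were above the untreated ones and still below every SW48 array, whose groups overlapped. The difference was 1.55 ± 0.19 (adjusted p = 0.0149), and GRHL3 also rose in HCT116 (1.10, adjusted p = 0.00119). Its call was lost without either untreated RKO array, either treated SW48 array or SW48 untreated replicate 1 (adjusted p up to 0.0801).

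LACC1, which encodes a laccase-domain enzyme known from macrophage metabolism, differed by 1.24 ± 0.17 (adjusted p = 0.0197). It read 6.75 and 6.79 in untreated RKO and 7.88 and 7.73 in treated RKO, and 5.15 and 5.07 against 4.80 and 5.00 in SW48. Every treated RKO array was above every untreated one, whereas in SW48 both treated arrays lay below both untreated ones. The SW48 values lay near the median of 5.03 of all probe sets, and the change of -0.21 there did not pass (adjusted p = 0.431). It rose by 1.54 in HCT116, and lost its call without any 1 of the 8 RKO and SW48 arrays (adjusted p up to 0.111).

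CCNG2, which encodes cyclin G2, an unconventional cyclin linked to cell cycle arrest, differed by 0.78 ± 0.083 (adjusted p = 0.00707) and kept its call in all 12 leave-one-out fits. RKO arrays read 6.47 and 6.47 untreated and 7.33 and 7.34 treated, and SW48 arrays 7.64 and 7.60 untreated and 7.75 and 7.67 treated. The RKO groups were well apart and the SW48 groups nearly touched. In HCT116 it rose by 0.63.

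APAF1, the scaffold of the caspase-activating apoptosome and a p53 target, read 8.07 and 7.97 in untreated RKO and 8.73 and 8.85 in treated RKO, against 7.42 and 7.31 and then 7.36 and 7.43 in SW48. The SW48 groups overlapped. The difference was 0.74 ± 0.098 (adjusted p = 0.0197), with a rise of 1.19 in HCT116. The call was lost without RKO untreated replicate 2, RKO Nutlin-3a replicate 2, SW48 untreated replicate 1 or either treated SW48 array (adjusted p up to 0.093).

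KITLG and LIF encode secreted ligands, the KIT ligand and the cytokine leukemia inhibitory factor. KITLG rose in RKO from 6.98 and 6.78 to 7.83 and 7.66, and in SW48 stood at 10.64 and 10.64 untreated and at 10.80 and 10.73 treated. SW48 thus held a far higher level throughout. The difference was 0.75 ± 0.12 (adjusted p = 0.0357), and in HCT116 KITLG changed by 0.01 (adjusted p = 0.967). LIF, singled out after its values were seen, differed by 0.70 ± 0.11 (adjusted p = 0.0323) with a rise of 1.01 in RKO. KITLG lost its call in 11 of the 12 leave-one-out fits, all but that without RKO untreated replicate 1 (adjusted p up to 0.145), and LIF in 10, all but those without a treated HCT116 array (0.138).

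ACER2, an alkaline ceramidase gene and p53 target, was, among the called differences, the one gene that rose in both lines and rose more in RKO. It went from 8.43 and 8.44 to 10.15 and 10.14 in RKO and from 9.12 and 9.13 to 10.10 and 10.27 in SW48, so that the treated levels of the lines met. The difference was 0.64 ± 0.10 (adjusted p = 0.0422), lost without any 1 of the 12 arrays (adjusted p up to 0.143). LCE1F, a late cornified envelope gene, lay between 3.62 and 5.11 on the 8 arrays and differed by 0.86 ± 0.13 (adjusted p = 0.0323), with a loss of the call in 9 of the 12 leave-one-out fits, all but those without RKO Nutlin-3a replicate 2 or a treated HCT116 array (adjusted p up to 0.138).

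Among the gene lists, genes of DNA replication made up the largest group of calls. The lists were chosen with earlier results of these data known, so their shares are description and no independent support. Of 36 measured genes in a list of DNA replication and E2F genes, 11 had a called response difference and all 11 were higher in RKO, where 0.213% of all probe sets were. The other 25 did not pass and lay between -0.094 and 0.55. The median difference was 0.36 over the list and 0.011 over all probe sets tested, and 34 of 36 members were above 0, as were 52.5% of all probe sets. The median effect of the list was -0.53 in SW48, where 26 of 36 fell, -0.20 in RKO, where 8 fell, and -0.35 in HCT116. Of all probe sets 1.62% fell in SW48 and 0.73% in RKO. Without 1 array, whichever of the 12 it was, between 1 and 5 of these genes were called. The median lay between 0.32 and 0.38 in the same fits.

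DTL, which encodes the substrate receptor of a cullin ubiquitin ligase that controls replication licensing, had the largest difference of the list. SW48 arrays went from 10.66 and 10.62 to 9.76 and 9.70, and RKO arrays from 11.51 and 11.46 to 11.34 and 11.34. The treated arrays were below the untreated ones in both lines, with a far wider gap in SW48. The difference was 0.76 ± 0.082 (adjusted p = 0.00707). ZNF367, a zinc finger gene whose expression peaks with E2F targets, fell in both lines, from 9.03 and 8.96 to 7.88 and 7.95 in SW48 and from 8.80 and 8.81 to 8.47 and 8.48 in RKO. Its difference was 0.75 ± 0.086 (adjusted p = 0.0113), lost without RKO untreated replicate 2, RKO Nutlin-3a replicate 2, SW48 untreated replicate 1 or SW48 Nutlin-3a replicate 1 (adjusted p up to 0.0595).

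E2F1, the transcription factor that drives entry into S phase, went from 9.25 and 9.15 to 8.24 and 8.42 in SW48 and from 9.56 and 9.48 to 9.44 and 9.34 in RKO. The difference was 0.74 ± 0.12 (adjusted p = 0.041), lost without any 1 of the 12 arrays (adjusted p up to 0.16). BRIP1, a DNA helicase of crosslink repair, differed by 0.66 ± 0.088 (adjusted p = 0.0197): it fell by 0.52 in SW48 and stood at 0.14 in RKO. Its call was lost without any 1 of the 8 RKO and SW48 arrays (adjusted p up to 0.102). The other 7 called members, which were named after their values were seen, were UHRF1, GINS2, CDC6, MCM10, MCM5, MCM2 and MCM6, with differences from 0.48 for MCM6 to 0.64 for UHRF1. MCM2, MCM5 and MCM6 are subunits of the replicative helicase, CDC6, GINS2 and MCM10 help to load or activate it, and UHRF1 maintains DNA methylation at replication. UHRF1 lost its call in 10 of the 12 leave-one-out fits, GINS2 in 9 and the other five in each (adjusted p up to 0.164). MCM2 fell by 0.70 in SW48 (adjusted p = 0.000137) and stood at -0.19 in RKO (adjusted p = 0.137).

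**Figure D5:**
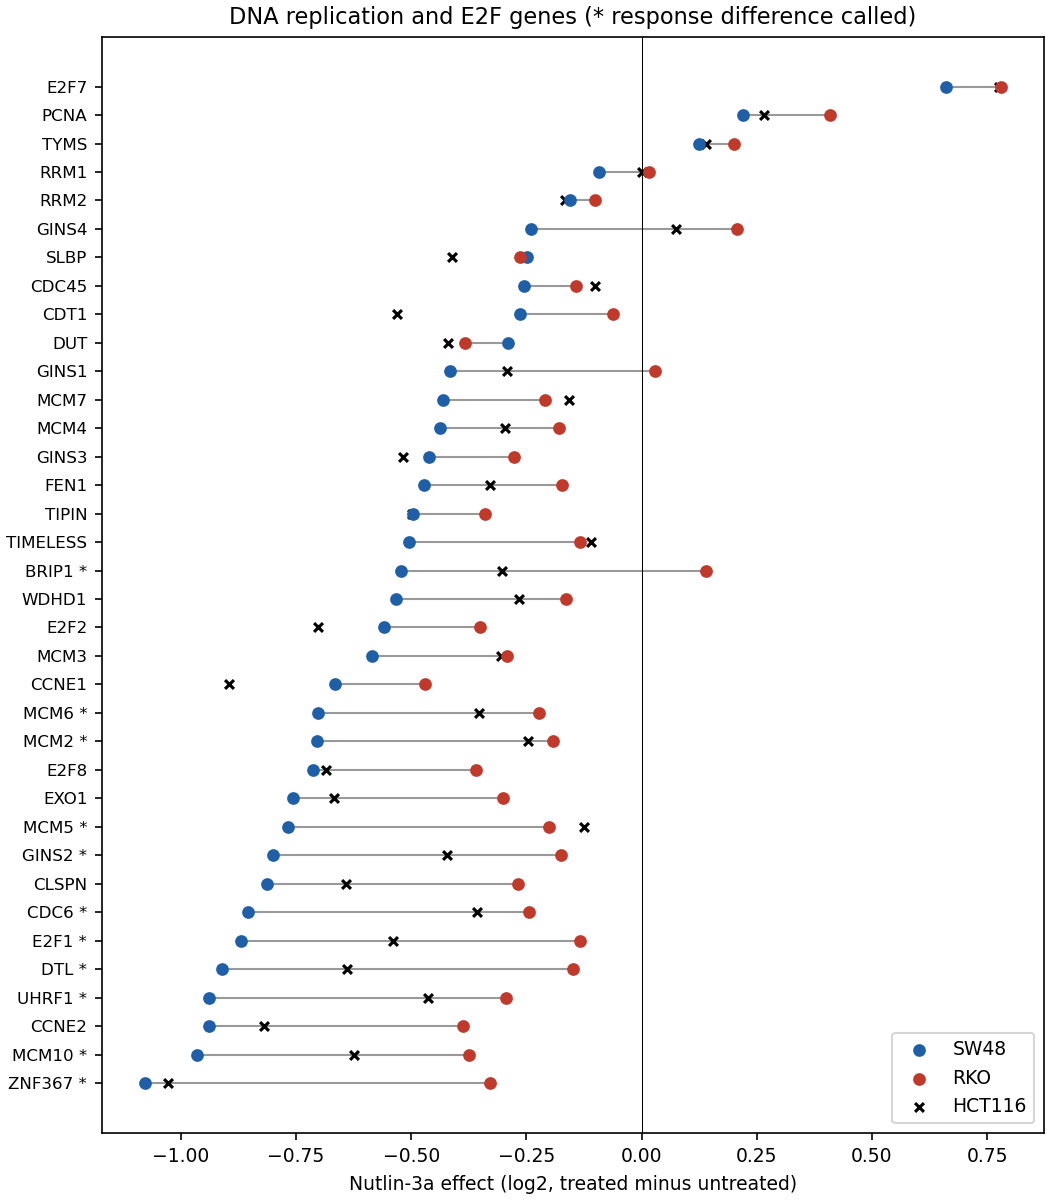
Nutlin-3a effect (x axis, log2) on the 36 measured DNA replication and E2F genes in SW48 (blue), RKO (red) and HCT116 (crosses), in order of the SW48 effect, with an asterisk where the RKO minus SW48 difference was called. The red point lies to the right of the blue one for 34 of 36 genes.

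These genes also differed before treatment. Untreated RKO was higher than untreated SW48 for 29 of the 36 with a called difference and lower for 2, with a median of 0.53. Over all probe sets 23.2% were higher and 20.7% lower. As a list they thus had both a higher untreated level and a smaller median fall in RKO. Whether the 2 go together gene by gene, and whether the level plays a part in the result, was not tested. Genes outside the list that fell in SW48 and not detectably in RKO included MYBL2 of the G2 and mitosis list, a MYB-family factor of late cell cycle genes (0.48 ± 0.075, adjusted p = 0.0359), and, seen only in the data, BARD1, the partner of BRCA1 (0.54 ± 0.084), CENPU, a centromere gene (0.56 ± 0.094), and RBL1, which encodes the RB-family protein p107 (0.60 ± 0.095, adjusted p = 0.0387). Each of these 4 lost its call without any 1 of the 12 arrays (adjusted p up to 0.161). The G2 and mitosis list had MYBL2 as its called gene of 39 measured, where 0.358% of all probe sets were called. Its median difference was 0.15, against 0.011 over all probe sets. Of the 39, 32 were above 0, as were 52.5% of all probe sets. In SW48 8 of them fell and in RKO 1, against 1.62% and 0.73% of all probe sets.

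The promoters of the genes that fell in SW48 were set against all promoters because these members moved together. The 8-base E2F spellings TTTCCCGC, TTTCGCGC, TTTGCCGC and TTTGGCGC were searched on both strands in windows from 250 bases before to 50 after each RefSeq gene start (GRCh38.p14), where their reverse complements can overlap them. Of the 19 called genes that fell in SW48, 15 had a promoter in the table and 10 of these held a match (66.7%), against 571 of 10568 genes tested here (5.40%). Of the 31 measured replication and E2F genes with a promoter, 20 held one, 8 of 10 with a called difference and 12 of 21 without. Those 8 are also among the 10 matched genes that fell in SW48. Their list was drawn up as one of E2F genes, so a high share was to be foreseen and is no separate support. No match was found for the 10 genes with a promoter that responded more in RKO without a fall in SW48, nor for the 18 that responded less in RKO. The p53 half-site consensus, which reads the same on both strands, was searched in the same windows. It was matched for 0 of the 18 genes that responded less in RKO and for 3 of 25 that responded more (12%), MCM6, DOCK8 and GRHL3, against 858 of 10568 genes tested (8.12%). Letters that match do not show binding.

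The stretches below show matches, in capitals, for 5 genes whose fall in SW48 was the greater one. They run 5′ to 3′ along the gene: the last 90 bases before the start for DTL (chr1:212035658-212035747, plus strand), ZNF367 (chr9:96418371-96418460, minus), E2F1 (chr20:33686386-33686475, minus) and RBL1 (chr20:37095998-37096087, minus), and bases 170 to 81 before it for MCM6 (chr2:135876524-135876613, minus).
DTL: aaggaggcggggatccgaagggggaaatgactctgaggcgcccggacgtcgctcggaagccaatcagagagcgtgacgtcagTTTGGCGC
ZNF367: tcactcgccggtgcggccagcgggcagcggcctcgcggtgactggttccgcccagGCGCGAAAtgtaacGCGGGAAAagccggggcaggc
E2F1: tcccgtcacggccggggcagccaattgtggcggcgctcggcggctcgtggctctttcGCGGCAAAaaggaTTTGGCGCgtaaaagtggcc
RBL1: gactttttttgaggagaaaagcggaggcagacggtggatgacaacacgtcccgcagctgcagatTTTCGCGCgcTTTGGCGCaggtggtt
MCM6: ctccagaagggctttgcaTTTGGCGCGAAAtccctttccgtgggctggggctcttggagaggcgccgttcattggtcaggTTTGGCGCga

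In 2 genes the effect was called in opposite directions in the lines. ACTG1P25, a transcribed actin pseudogene whose probes may also read its parent or other copies, went from 5.62 and 5.63 to 5.15 and 5.14 in SW48 and from 4.86 and 4.75 to 5.19 and 5.18 in RKO. The groups did not overlap in either line, and the treated levels of the lines met. The difference was 0.86 ± 0.085 (adjusted p = 0.00639). IFRD1, a transcriptional co-regulator of differentiation and stress, went from 7.70 and 7.72 to 7.94 and 8.06 in SW48 and from 8.29 and 8.33 to 7.96 and 8.00 in RKO, so that here too the treated levels met. Its difference was -0.62 ± 0.086 (adjusted p = 0.0237). The call of IFRD1 was lost in 10 of the 12 leave-one-out fits, all but those without a treated HCT116 array (adjusted p up to 0.114).

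Of 21 measured Wnt target and intestinal identity genes, 2 passed, in opposite directions, where 0.358% of all probe sets passed. AXIN2, a feedback inhibitor and target of Wnt signalling, read 9.48 and 9.56 in untreated RKO and 9.01 and 9.03 in treated RKO, and 11.70, 11.80, 11.85 and 11.80 in SW48. It fell in RKO from a level already below SW48, and differed by -0.58 ± 0.095 (adjusted p = 0.0431). LGR5, a Wnt-linked receptor of intestinal stem cells, went from 6.73 and 6.78 to 6.17 and 6.07 in SW48, while the RKO arrays lay at 3.59, 3.85, 3.86 and 3.94, below the median of all probe sets. Its difference was 0.81 ± 0.13 (adjusted p = 0.0431). AXIN2 lost its call without any 1 of the 12 arrays (adjusted p up to 0.167), and LGR5 in 11 of the 12 fits, all but that without RKO untreated replicate 2 (0.163).

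KRTAP2-3, a keratin-associated protein gene, and the antisense RNA FAM222A-AS1 fell in RKO and not detectably in SW48. KRTAP2-3 went from 6.28 and 6.25 to 5.72 and 5.62 in RKO and stood at 4.39, 4.19, 4.47 and 4.50 in SW48, with a difference of -0.79 ± 0.13 (adjusted p = 0.0431). FAM222A-AS1, which overlaps FAM222A, differed by -0.75 ± 0.12 (adjusted p = 0.0431). DUSP6, a phosphatase that switches off ERK, was the called gene of 21 measured MAPK-responsive genes, where 0.358% of all probe sets were called. It differed the other way, by 0.52 ± 0.089 (adjusted p = 0.0489), and rose in RKO by 0.34. These 3 lost their calls without any 1 of the 12 arrays (adjusted p up to 0.169). MTNR1A, the gene of a melatonin receptor, and ZNF763, a zinc finger gene, fell in SW48 and differed by 0.77 ± 0.13 (adjusted p = 0.0431) and 0.94 ± 0.13 (adjusted p = 0.021). MTNR1A lost its call in 11 of the 12 leave-one-out fits, all but that without SW48 untreated replicate 2 (adjusted p up to 0.163), and ZNF763 in 7, all without an RKO or SW48 array (0.114).

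Most p53 targets showed no called difference. Of 63 measured genes in 6 lists of p53 targets (feedback, arrest, apoptosis, metabolism and autophagy, DNA repair, secreted and membrane proteins), 4 were higher in RKO, ACER2, APAF1, KITLG and LIF, and 4 lower, SULF2, SPATA18, GDF15 and NECTIN4, where 0.213% of all probe sets were higher and 0.145% lower. Their median difference was -0.06, and 25 of 63 were above 0, as were 52.5% of all probe sets. Of the 26 that rose in both lines, GDF15 and ACER2 had a called difference. Secreted and membrane proteins held 5 calls among 18 measured genes, the metabolism list 2 among 19 and the apoptosis list 1 among 12, against 0.358% called of all probe sets. The feedback, arrest and DNA repair lists, with 4, 6 and 4 measured genes, held none. Of 8 measured p53-linked noncoding RNAs, MIR34A passed. The p53 lists were also chosen with earlier results of these data known, so their shares are description only.

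TP53INP1, a p53 stress response gene, differed by 0.17 ± 0.11, with a 95% interval from -0.07 to 0.41 (adjusted p = 0.628). RRM2B, the p53-inducible ribonucleotide reductase subunit, differed by -0.18 ± 0.12 (-0.44 to 0.08, adjusted p = 0.633), and SESN1, an inhibitor of mTORC1 signalling, by -0.25 ± 0.10 (-0.47 to -0.03, adjusted p = 0.427). PURPL, a p53-induced long noncoding RNA, differed by 0.46 ± 0.19 (0.02 to 0.89, adjusted p = 0.456). The antioxidant gene GPX1 differed by -0.13 ± 0.10 (-0.36 to 0.10, adjusted p = 0.709) and MATR3, which encodes the RNA-binding protein Matrin 3 of the study's title, by -0.01 ± 0.076 (-0.18 to 0.16, adjusted p = 0.977). These intervals are not adjusted for the number of genes. That of PURPL reaches past 0.48, the smallest difference called, and the other five do not. The apoptosis genes BAX (-0.53 ± 0.10, adjusted p = 0.0883) and BBC3 (0.51 ± 0.14, adjusted p = 0.236) did not pass, nor did the polo-like kinase gene PLK2 (-0.52 ± 0.13, adjusted p = 0.202), which lay between 4.03 and 4.26 on the RKO arrays.

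Of 26 gene lists, 25 had a measured gene, and in 17 of these no member had a called difference. Over the 149 genes of those 17 lists, 27 had an unadjusted p under 0.05 by limma and 0 an adjusted one, where 10.5% of all probe sets had such an unadjusted p. Their median differences lay between -0.21 and 0.18. In the ribosome biogenesis and MYC list 13 of 15 members were below 0, with a median of -0.19, and MYC itself differed by -0.52 ± 0.092 (adjusted p = 0.0603). The other lists in this range were cholesterol synthesis, interferon-stimulated, inflammatory, integrated stress, mismatch repair, mesenchymal, p53 regulator, study-named, housekeeping and foreign cell type genes, and the p53 feedback, arrest and repair lists already given. Replication-dependent histone genes had no named probe set and are not analysed here. Of the 52 calls, 28 were in no list.

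Several called genes overlap another gene in RefSeq, such as APAF1 with ANKS1B, LACC1 with CCDC122, CENPU with PRIMPOL and GINS2 with GSE1, and which transcript a probe set reads was not tested.

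The size of a difference alone did not decide the call. In all, 14 probe sets differed by at least 1, and the 5 without a call were RGPD2, OSTCP1, UNC5B-AS1, MIRLET7F1 and ZNG1C, chosen here after their values were seen. UNC5B-AS1, an antisense RNA, read 6.87 and 7.49 in untreated SW48 and 8.53 and 9.10 in treated SW48, against 6.10 and 5.82 and then 6.43 and 6.25 in RKO. The 2 arrays of each SW48 group were far apart, and the difference was -1.25 ± 0.31 (adjusted p = 0.194). MIRLET7F1, a let-7 microRNA gene, differed by -1.01 ± 0.22 (adjusted p = 0.145). RGPD2 had a standard error of 0.95, and its 2 treated RKO arrays read 3.07 and 5.13.

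The response of HCT116 shares no array with this comparison. Of the 21 genes lower in RKO, the HCT116 response was nearer that of RKO in 11 and nearer that of SW48 in 10, and it lay between the other two in 16. Of the 31 higher in RKO, it was nearer RKO in 19 and nearer SW48 in 12, and lay between in 25. These genes were selected for the distance between RKO and SW48, and nothing is read from these counts. ZNF367 changed by -1.03 in HCT116, close to SW48, and ACER2 by 1.83, close to RKO.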

How the data were processed

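RNA was measured on 1 Affymetrix Human Gene 2.0 ST array per sample. The deposited log2 values of the authors' table were used. Per the submitters' processing notes GCOS was used; for background correction, summarization and normalization, the method was not given in the sources used here. Values span 2.22 to 13.45, from which base 2 was inferred. Column medians lay between 4.97 and 5.05. No columns were identical, and 0 columns were left unused.

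Platform annotation gave 1 symbol to 14530 of 37270 probe sets (39.0%), several to 0 and none to 22740. No genome build is given for them. No dim-signal filter was applied.

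limma 3.58.1 in R 4.3.3 fitted 6 group means over 12 arrays (6 residual and 3.70 prior degrees of freedom). On simulated data with 14530 probe sets, this contrast recovered 80 of 100 differences of size 1 and 32 of 100 of size 0.5, with 9 false calls. The simulated noise was normal and independent between arrays, with no shift shared by replicates. More differences were planted than were called in the real data, so these rates need not hold there. The members and gene lists were chosen with earlier results of these data known. Named genes are the 12 largest called and separated differences each way, up to 4 called members of each list, opposite calls and 7 fixed genes. Of several probe sets in a list, the brightest was used. Alternatives were the arrays fitted, prior, normalization, filter, features, replicate block, threshold and leaving out each array. The number of arrays limits the precision.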

Additional observations from a re-analysis of the deposited data

Results flagged for a closer look

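Each called gene that the naming rule gives is listed because the Nutlin-3a effects of the 2 lines differed by the test of the difference itself (limma, adjusted p under 0.05, values RKO minus SW48 on the log2 scale). Lower in RKO were SULF2 (-2.26), SPATA18 (-1.59), RPTN (-1.50), GAS6-AS1 (-1.46), MIR34A (-1.26), GDF15 (-1.26), DQX1 (-1.11), NECTIN4 (-0.95), SDC4 (-0.95), C1orf116 (-0.81), KRTAP2-3 (-0.79), FAM222A-AS1 (-0.75), IFRD1 (-0.62) and AXIN2 (-0.58). Higher in RKO were GRHL3 (1.55), LACC1 (1.24), ZNF763 (0.94), LCE1F (0.86), ACTG1P25 (0.86), LGR5 (0.81), CCNG2 (0.78), MTNR1A (0.77), DTL (0.76), ZNF367 (0.75), KITLG (0.75), APAF1 (0.74), E2F1 (0.74), BRIP1 (0.66), ACER2 (0.64), DUSP6 (0.52) and MYBL2 (0.48).

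In data outside the main comparison, probe sets with no gene symbol, 14 were called when all 37270 probe sets were tested, 6 higher and 8 lower in RKO, with differences from -1.90 to 1.10 (adjusted p from 0.00524 to 0.0476).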

How the results depend on the processing

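In every alternative the 52 calls kept their sign wherever they were tested. This was fixed in advance where only the prior, threshold, replicate block or features tested changed, or where only HCT116 arrays were left out. The fitted difference is then the same. The calls were also selected for large differences, so the kept sign is no separate support. Quantile normalization (54 calls), median centring (39), 1 probe set per gene (51) and leaving out dim probe sets (69) stayed within 1.5 times the main count. With a robust prior fitted along intensity there were 154 calls, 89 higher and 65 lower in RKO, and 18 replication and E2F genes. With all probe sets tested there were 32, with 14 higher and 2 replication genes. Of these 32, 18 were among the 52 and 14 have no gene symbol. With only the SW48 and RKO arrays there were 14, with 6 higher, 8 lower and 2 replication genes. At an adjusted p under 0.01 there were 8, with 3 higher, 5 lower and 1 replication gene. Leaving out 1 array gave 9 to 27 calls, 3 to 14 higher, 6 to 13 lower and 1 to 5 replication genes. The cause of these shifts was not tested, apart from the fewer arrays, or the more features tested, that some have by construction. MATR3, not called, changed sign without RKO Nutlin-3a replicate 1 (0.0028, adjusted p = 0.995; -0.028 to 0.0028 over the leave-one-out fits).

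The labels do not say whether the replicate numbers pair the samples. Between untreated and treated groups, deviations of same-numbered arrays correlated at 0.0503 in HCT116, -0.0255 in SW48 and -0.0611 in RKO. These values show no strong shared shift, but they cannot show that the samples were unpaired. A replicate block shared by the lines gave 21 calls, 10 higher, 11 lower and 4 replication genes. A replicate block within line left 1 call, SULF2, with 0 higher, 1 lower and 0 replication genes by limma, where 799 probe sets, 22 of them of replication genes, were higher at an unadjusted p under 0.05.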
